A study of Homo sapiens with 3 samples.

Results

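The mRNAs described here are 10 oncofetal and liver stem cell markers, AFP, GPC3, EPCAM, CD24, PROM1, DLK1, SALL4, SOX9, SPP1 and IGF2BP3, of 19740 genes named on the array. They were chosen by name, and their probes were found through the RefSeq accession that the array files give for each probe. This yielded 12 probes of 34127, in 21 spots, with 2 probes each for GPC3 and DLK1 and 1 probe for each of the other 8 genes. The samples were Huh7 cells, a human hepatoma cell line, either untreated (treatment "none") or kept for 24 h with chlorogenic acid (CA), a plant polyphenol, at 50 μM or at 100 μM. Each group was measured as Cy3-labelled total RNA on 1 whole-genome Agilent array, so that 3 arrays were compared without replicates and no p-value could be given. According to the study's methods, its untreated cells received DMSO, the solvent of CA. Huh7 is a single line grown in culture, and all 3 groups share that background. The design asks whether these markers were lower in cells given CA, as differentiation of hepatoma cells would make them.

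Oncofetal genes are active in the fetal liver, are silenced after birth, and return in many hepatocellular carcinomas. AFP and GPC3 are used as tumour markers for this reason, while EPCAM, CD24, PROM1 and DLK1 are surface proteins used to isolate liver progenitor-like or stem-like tumour cells. SALL4 and SOX9 are transcription factors of the fetal or biliary progenitor programme, IGF2BP3 is a fetal RNA-binding protein, and SPP1 encodes a secreted matrix protein.

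The 10 markers did not move one way. By the brightest measured probe of each gene, 5 of 10 were lower at CA 50 μM than in untreated cells, where 56.3% of the 14700 genes measured on both arrays were lower. That count became 6 of 10 with median centring and with normexp background correction, and 4 of 10 with the mean over a gene's probes. At CA 100 μM, 5 of 10 were lower, against 57.6% of 14640 genes, and this count became 3 of 10 with quantile scaling and with the authors' log2 table. The median log2 ratio of the markers was -0.03 at 50 μM and -0.02 at 100 μM, and that of all genes was -0.04 and -0.03. Both comparisons use the same untreated array, so an error on that array would enter both.

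AFP, the surface markers EPCAM and CD24 and the brighter probe of GPC3 gave a lower level at both doses, whereas PROM1, SOX9, SALL4 and IGF2BP3 gave a higher level at both. GPC3 at both doses and CD24 at 100 μM changed sign under some scalings. SPP1 was the marker with the widest span, lower at 50 μM and slightly higher at 100 μM. It was also the only one of the 10 that differed by at least 1.5-fold from untreated cells, at 50 μM, where 2.17% of all genes were lower and 4.16% higher by that much. At 100 μM no marker reached 1.5-fold, where 1.54% of all genes were lower and 1.65% higher. No marker reached 2-fold at either dose. Of all genes, 0.517% were at least 2-fold lower and 0.463% at least 2-fold higher at 50 μM, and 0.205% and 0.458% at 100 μM.

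Levels are given below as the processed signal in arbitrary intensity units and, on the log2 scale, as the difference from the 75th percentile of the same array, which was 1059 units for untreated cells, 1207 for CA 50 μM and 1249 for CA 100 μM. All 12 probes were well above background on every array, and none of their spots was saturated. Since signals of different probes depend on each probe's own binding, no marker's level was set against another's. The error within an array was taken from probes printed 10 times, 806 of which gave a value at CA 50 μM and 807 at 100 μM. When probes were divided by signal into 5 classes of equal size, the highest class held 8 of the 12 marker probes. In that class the median SD between spots of the CA 50 μM to untreated ratio was 0.05 on the log2 scale. It was 0.07 in the middle class, which holds SPP1, and 0.09 in the second lowest, which holds SALL4 and both DLK1 probes. No marker probe fell in the lowest class, which holds GPC1, NCAM1, ANKRD1, HPD and TAT of the related genes below. There the SD was 0.21. This SD covers the printing and reading of spots and leaves out the spread between cultures, which was not measured.

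**Figure D1:**
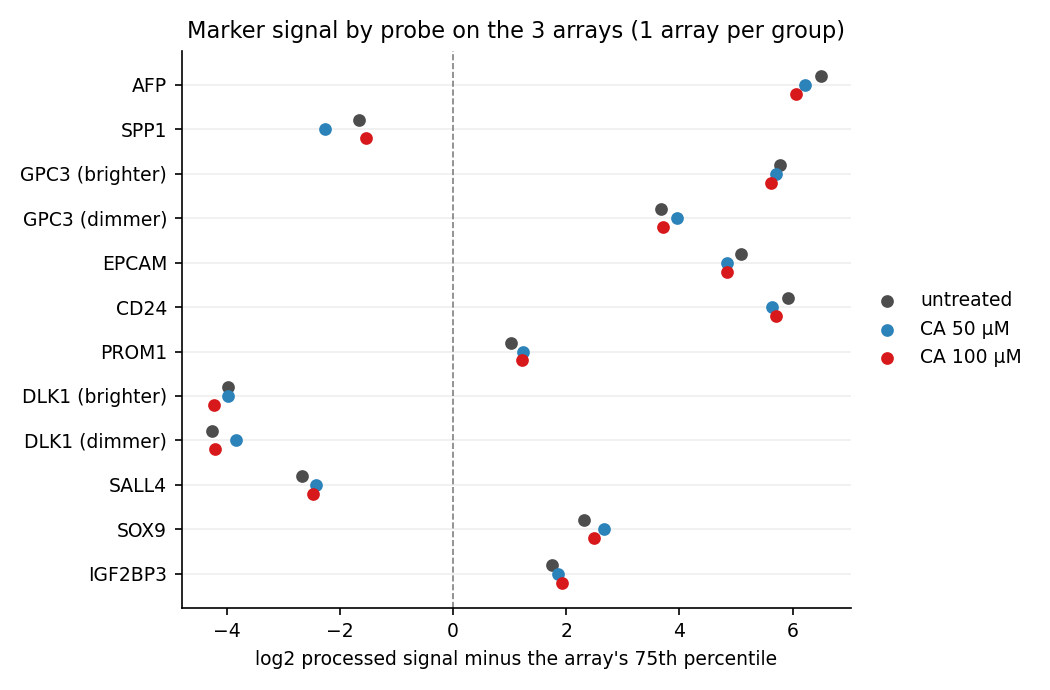
Log2 level of each of the 12 marker probes relative to the array's 75th percentile (x axis) in untreated, CA 50 μM and CA 100 μM cells, 1 array each. Among the 12 probes the 3 points of SPP1 spread the most, from -2.26 to -1.54, and the positions of different probes are not comparable.

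The cells carried the hepatocyte character of their label on all 3 arrays. ALB, the main plasma protein of liver, read 109428, 112826 and 100920 units in untreated, CA 50 μM and CA 100 μM cells, and 8 of 10 hepatocyte lineage markers were measured on every array. The exceptions were TF, whose untreated and CA 50 μM spots had an outlier flag, and HNF4A, whose probe was well above background only at CA 50 μM. Markers of other cell types were not all absent from this array: PTPRC, CD14 and CD68 of blood cells, PECAM1 and CDH5 of endothelium and COL1A2, COL3A1, ACTA2 and PDGFRB of fibroblasts or stellate cells read above background, from 15.2 to 480 units in untreated cells. The endothelial KDR did not, and the fibroblast COL1A1 did so only at 100 μM, in an area of that array where dim spots were bright on that array alone, called a disturbed area here. Their part in the results below was not tested. In total RNA of a culture, fewer cells that carry a marker and less of its mRNA in each cell cannot be told apart.

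AFP encodes the main plasma protein of the fetus, a relative of albumin. Its probe read 95490 units in untreated cells, 89739 at CA 50 μM and 83766 at 100 μM. The untreated array was the highest and the CA 100 μM array the lowest, in log2 levels of 6.49, 6.22 and 6.07. The log2 ratio to untreated cells was thus -0.28 at 50 μM (1.21-fold lower) and -0.43 at 100 μM (1.34-fold lower). At 100 μM this lay outside the middle 90% of probes in the same class of signal, which ran from -0.31 to 0.16, and only 1.20% of them were lower. At 50 μM AFP lay inside that middle range, from -0.37 to 0.31. A background flag stood on the AFP spot of the CA 100 μM array. Across the alternatives that gave a value the AFP ratio kept its sign but not its size, from -0.40 to -0.02 at 50 μM and from -0.45 to -0.12 at 100 μM, where normexp gave none.

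The AFP promoter is shown because it is the textbook case of control by liver factors, together with that of SPP1, the marker with the widest span. The windows are the 250 bases before the gene start in RefSeq (GRCh38.p14), which held an entry for 5 of the 10 markers (AFP, SPP1, PROM1, CD24 and IGF2BP3), and GPC3, EPCAM, DLK1, SALL4 and SOX9 were not matched. The AFP window is chr4:73435971-73436220 and the SPP1 window chr4:87975464-87975713, both on the plus strand and printed 5′ to 3′. Capitals mark the motifs, which were searched on both strands and do not overlap. TATAAA is the TATA box. The RUNX motif was searched as AACCACA.
AFP: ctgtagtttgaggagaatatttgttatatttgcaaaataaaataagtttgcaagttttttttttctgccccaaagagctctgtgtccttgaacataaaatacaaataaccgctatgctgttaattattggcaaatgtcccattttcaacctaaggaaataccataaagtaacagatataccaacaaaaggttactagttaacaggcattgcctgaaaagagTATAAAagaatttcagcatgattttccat
SPP1: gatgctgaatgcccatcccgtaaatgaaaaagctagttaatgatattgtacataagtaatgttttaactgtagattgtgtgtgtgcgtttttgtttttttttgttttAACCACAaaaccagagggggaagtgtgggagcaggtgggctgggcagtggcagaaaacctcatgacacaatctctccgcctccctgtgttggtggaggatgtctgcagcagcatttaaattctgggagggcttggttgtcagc
In AFP, TATAAA begins 29 bases before the gene start, and in SPP1, AACCACA begins 143 bases before it. Of 35116 RefSeq windows of this length, 10.7% held TATAAA and 3.65% AACCACA. The windows of PROM1, CD24 and IGF2BP3 held neither motif. A match of letters is a description only.

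GPC3, a heparan sulfate proteoglycan tethered to the cell surface, was read by 2 probes that did not give the same sign. The brighter probe gave 58390 units in untreated cells, 63217 at CA 50 μM and 61690 at 100 μM. Relative to each array's 75th percentile these were 5.79, 5.71 and 5.63, so that the log2 ratios were -0.07 at 50 μM and -0.16 at 100 μM. The dimmer probe gave 13554, 18804 and 16414 units, with log2 ratios of 0.28 at 50 μM and 0.04 at 100 μM. Under other scalings the brighter probe ran from -0.12 to 0.15 at 50 μM and from -0.18 to 0.07 at 100 μM, which leaves the direction of GPC3 unsettled on these arrays.

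Among the surface markers, EPCAM, an epithelial adhesion molecule of hepatoblasts and bile ducts, was similar at both doses. It read 36128 units in untreated cells, 34773 at 50 μM and 35725 at 100 μM, in log2 levels of 5.09, 4.85 and 4.84. Its log2 ratio was -0.24 at 50 μM (-0.29 to -0.08 over the alternatives) and -0.25 at 100 μM (-0.28 to -0.10). The CA 100 μM spot of EPCAM also lay in a disturbed area, whose part in this value was not tested. The highest of the dim spots that were bright there stood at 73.0 units, 0.204% of the EPCAM signal.

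CD24, a small surface sialoglycoprotein, read 64010 units in untreated cells, 60233 at CA 50 μM and 65097 at 100 μM. Its log2 ratios were -0.28 and -0.21, each inside the middle 90% of probes of its class. The size of the CD24 ratio depended on the scaling at 50 μM (-0.33 to -0.03), and at 100 μM its sign did too (-0.23 to 0.05).

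PROM1, a pentaspan membrane protein known as a marker of stem-like tumour cells, was higher in both CA samples. The probe read 2166 units in untreated cells, 2836 at CA 50 μM and 2898 at 100 μM, and the log2 ratios were 0.20 and 0.18. The second of these lay above the middle 90% of its class (upper end 0.16), and the first did not (upper end 0.31). PROM1 stood close to the lower limit of that class, however. In the next class down the middle 90% reached 0.26 at 100 μM, above the PROM1 ratio. PROM1 kept this direction under every alternative, with ratios from 0.15 to 0.25 at 50 μM and from 0.16 to 0.21 at 100 μM.

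DLK1, a Notch-related protein of hepatoblasts, was dim. One probe read 55.4, 85.0 and 68.0 units in untreated, CA 50 μM and CA 100 μM cells, with log2 ratios of 0.43 and 0.06. The other read 67.1, 77.1 and 66.7 units, with log2 ratios of 0.01 and -0.25. The 2 probes therefore gave different signs at 100 μM, and no direction was read from DLK1.

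The transcription factor SOX9, which marks biliary and progenitor cells, was the marker with the largest positive ratio among those of the highest signal class. It read 5251 units in untreated cells, 7683 at CA 50 μM and 7064 at 100 μM. Both CA arrays were above the untreated one, at log2 levels of 2.67 and 2.50 against 2.31. The log2 ratio was 0.36 at 50 μM (1.28-fold higher) and 0.19 at 100 μM (1.14-fold higher), above the middle 90% of probes of its class at both doses. In the next class down, however, the middle 90% reached 0.45 at 50 μM and 0.26 at 100 μM, above both SOX9 ratios. Under the alternatives SOX9 ran from 0.31 to 0.44 at 50 μM and from 0.14 to 0.24 at 100 μM.

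SALL4, a zinc finger factor of embryonic stem cells and fetal liver, read 166 units in untreated cells, 226 at CA 50 μM and 225 at 100 μM. The log2 ratios were 0.25 and 0.19, inside the middle 90% of probes of like signal at both doses (-0.46 to 0.68 and -0.39 to 0.49). The fetal RNA-binding protein IGF2BP3 read 3559, 4374 and 4729 units. Its log2 ratios were 0.11 and 0.17, the latter just above the middle 90% of its class but below the 0.26 reached in the next class down. Neither SALL4 nor IGF2BP3 changed sign under any alternative, with IGF2BP3 between 0.06 and 0.28.

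**Figure D2:**
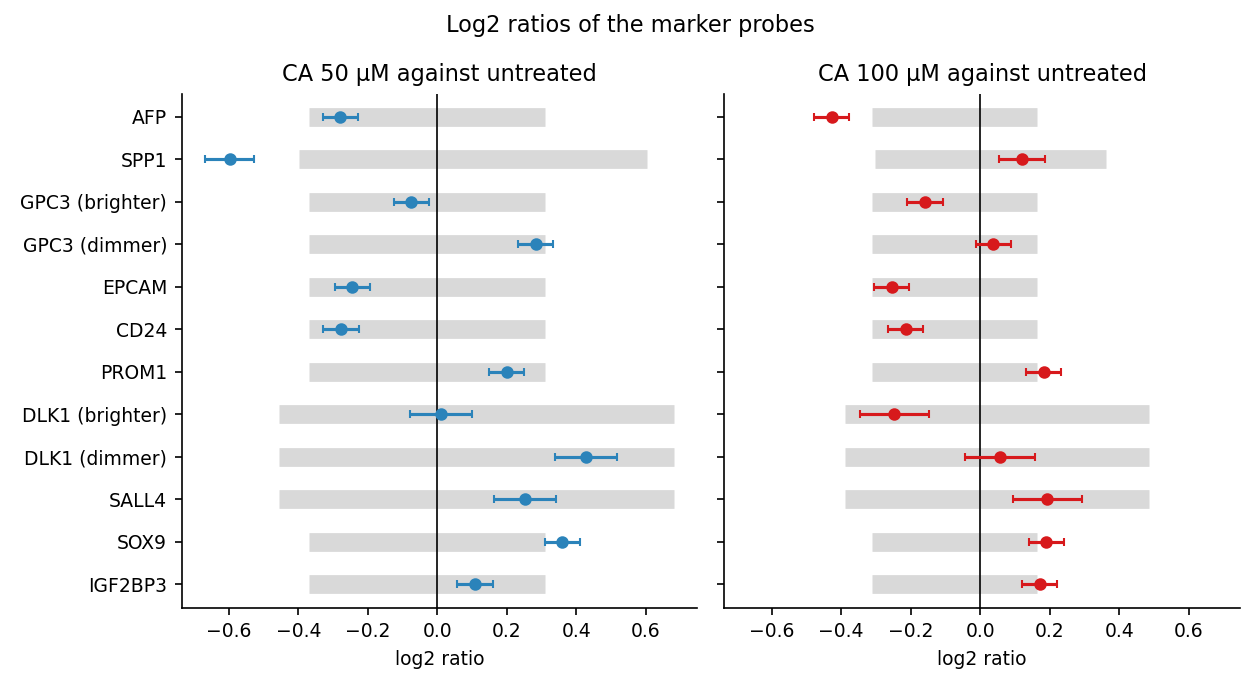
Log2 ratio of each of the 12 marker probes to untreated cells at CA 50 μM and CA 100 μM (x axis). Error bars are the median SD between spots of probes of like signal, and grey bars span the middle 90% of all probes of the same signal class, which SPP1 and SOX9 leave at 50 μM and AFP, PROM1, SOX9 and IGF2BP3 at 100 μM. In the class below that of PROM1, SOX9 and IGF2BP3 this span reached 0.45 at 50 μM and 0.26 at 100 μM, above their ratios.

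SPP1 encodes osteopontin, a secreted phosphoprotein that binds integrins and CD44. It was the only marker printed in 10 spots, which allowed its own error within an array to be given. The spots used gave 335 ± 22.2 units in untreated cells (SD, n = 9 spots), 253 ± 21.1 at CA 50 μM (n = 10 spots) and 431 ± 53.8 at CA 100 μM (n = 8 spots), after spots with an outlier flag were left out. In units the spots used ran from 304 to 378, from 232 to 302 and from 384 to 548, without overlap before scaling. The flagged untreated spot, at 468 units, fell within the CA 100 μM range.

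After scaling, the log2 level of SPP1 was -1.66 in untreated cells, -2.26 at 50 μM and -1.54 at 100 μM. On this scale the spots at 50 μM (-2.38 to -2.00) still lay below those of untreated cells (-1.80 to -1.48), whereas the spots at 100 μM (-1.70 to -1.19) overlapped with the untreated ones. The log2 ratio to untreated cells was -0.60 at 50 μM (1.51-fold lower) and 0.12 at 100 μM (1.09-fold higher). Spot by spot, at the same positions of the arrays, the ratio was -0.59 ± 0.08 at 50 μM (SD, n = 9 spots) and 0.13 ± 0.14 at 100 μM (n = 8 spots). Every spot pair was lower at 50 μM, from -0.73 to -0.49, whereas at 100 μM the pairs ran from -0.07 to 0.30 and spanned 0. Spots of 1 array share 1 RNA sample, so these errors say nothing of another culture. The alternatives left SPP1 lower at 50 μM, between -0.67 and -0.52, and the value of -0.52, from background correction by normexp, falls short of 1.5-fold.

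Between the doses, SPP1 was 1.65-fold higher at CA 100 μM than at CA 50 μM, with a log2 ratio of 0.72. It was the only marker past 1.5-fold there, where 1.4% of 14666 genes were higher and 1.53% lower by that much. The remaining markers lay within 1.20-fold of each other at the 2 doses by their brightest probe. In all, 7 of 10 markers were lower at 100 μM than at 50 μM, against 49.5% of all genes. With median centring this was 5 of 10, since EPCAM and PROM1 stood close to 0 and changed sign. With normexp it was 5 of 9, since AFP had no value and PROM1 changed sign. The median log2 ratio between doses was -0.04 for the markers and 0.00 for all genes. On the log2 scale AFP had a ratio of -0.15 and SOX9 of -0.17 between the doses, and EPCAM and PROM1 stood at -0.01 and -0.02, less than the SD between spots.

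**Figure D3:**
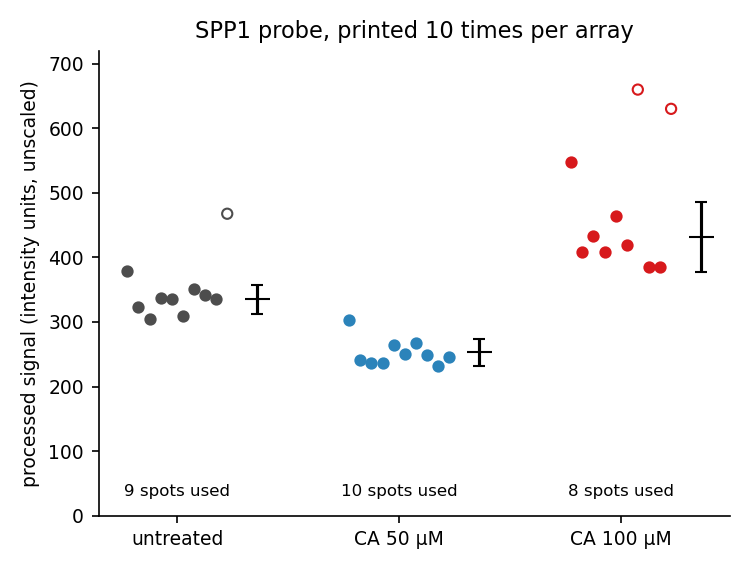
Processed signal of each of the 10 SPP1 spots (y axis, intensity units), by array. Open circles are spots left out for an outlier flag, and bars are the mean ± SD of the spots used, 335 ± 22.2, 253 ± 21.1 and 431 ± 53.8.

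The lower readings of AFP, CD24, EPCAM and the brighter GPC3 probe coincided with very high signal. Among the 324 probes at least as bright as that of EPCAM, a group formed after the values were seen, 91.0% were lower with CA 50 μM than in untreated cells and 97.2% with the higher dose. The median log2 ratio of these probes was -0.21 at 50 μM and -0.23 at 100 μM, with 90% of them from -0.40 to 0.06 and from -0.44 to -0.02. At 50 μM, 29.9% of these bright probes were lower than AFP, 30.6% lower than CD24, 41.7% lower than EPCAM and 83.3% lower than GPC3. The CA 100 μM values of CD24, EPCAM and GPC3 were likewise within the group, at 53.1%, 43.5% and 69.1%. AFP stood nearer to its lower end at 100 μM, where 5.86% of the bright probes were lower. Whether the shift of the brightest probes lies in the arrays or in the cells was not tested.

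Genes related to the markers were grouped in 5 lists. Of all genes, 56.3% were lower at CA 50 μM and 57.6% at CA 100 μM. By at least 1.5-fold, 2.17% were lower and 4.16% higher at 50 μM, and 1.54% and 1.65% at 100 μM. Of 21 oncofetal relatives 16 were measured on both arrays, 11 lower and 5 higher at CA 50 μM (median log2 ratio -0.11) and 9 lower and 7 higher at CA 100 μM (median -0.06). IGF2, the fetal growth factor whose mRNA IGF2BP3 binds, read 96963, 92439 and 81687 units, with log2 ratios of -0.26 and -0.49. Its CA 100 μM spot lay in a disturbed area. The probe given, 1 of 2 on the array, also belonged to the brightest probes described above, most of which were lower with CA. GPC1, a relative of GPC3, was the only one of the 16 past 1.5-fold, at 42.3, 33.1 and 91.7 units and log2 ratios of -0.54 and 0.88. The imprinted RNA H19 cleared the background only with 50 μM (bound 1.22-fold higher). The cancer-testis gene MAGEA4 did so only with 100 μM (bound 2.46-fold higher), in a disturbed area. Neither bound is a firm limit. The remaining IGF2BP genes, IGF2BP1 and IGF2BP2, had log2 ratios of 0.16 and 0.02 at 50 μM and of 0.25 and 0.01 at 100 μM. For IGF2BP2 this is 1 of 2 probes on the array.

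Further stem and progenitor markers are read here against the 56.3% and 57.6% of all genes that were lower at 50 μM and 100 μM, and the 2.17% and 1.54% at least 1.5-fold lower. Of 24 genes 20 were measured at 50 μM, with 15 lower, 5 higher and 2 of them at least 1.5-fold lower (median log2 ratio -0.16). At 100 μM 21 were measured, with 14 lower and 7 higher, of which 3 were at least 1.5-fold lower (median -0.18). KRT7, a keratin of bile ducts, read 6317 units in untreated cells, 3839 at CA 50 μM and 4897 at 100 μM, with log2 ratios of -0.91 and -0.61. CLDN3, a tight junction protein, read 334, 192 and 250 units, with log2 ratios of -0.99 and -0.65. Both genes were thus lowest at 50 μM, as SPP1 was.

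NCAM1, an adhesion molecule of hepatic progenitors, read 40.4 units in untreated cells and 23.6 at CA 100 μM, with a log2 ratio of -1.01. At CA 50 μM its probe read 14.1 units and was not well above background. The bound of 3.28-fold lower was taken at that reading, so it is not a firm limit. NCAM1 had 3 probes on the array, of which 1 is given here. Each of these genes rests on a single spot per array.

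The regulators of AFP showed no common direction, with 6 of 12 measured genes lower and 6 higher at each dose (median log2 ratio 0.02 at 50 μM and -0.0022 at 100 μM). Of all genes, 56.3% and 57.6% were lower. ZBTB20, a repressor of AFP in the liver after birth, was the only one of the 12 past 1.5-fold. This was at 50 μM, where 4.16% of all genes were higher by that much. ZBTB20 read 740 units in untreated cells, 1370 at CA 50 μM and 1137 at 100 μM, with log2 ratios of 0.70 and 0.38. It had 2 probes on the array, of which 1 is given here. HNF4A, at 9.37, 21.8 and 15.5 units, gave only a bound of 1.57-fold higher at 50 μM, which is not a firm limit.

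Of 16 genes of the YAP and Notch pathways, which act on SOX9 and SPP1, 9 were lower and 7 higher at 50 μM (median -0.04). At 100 μM 5 were lower and 11 higher (median 0.06). Of all genes, 56.3% and 57.6% were lower at these doses. At 50 μM 2.17% were at least 1.5-fold lower and 4.16% at least 1.5-fold higher. TEAD2, a DNA-binding partner of YAP, read 200, 407 and 290 units, with log2 ratios of 0.84 and 0.30. ANKRD1, a YAP target, read 24.9, 17.4 and 26.5 units, with log2 ratios of -0.70 and -0.15. The remaining genes stayed under 1.5-fold, with the Notch target HES1 at 0.47 and 0.46.

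Genes of the mature hepatocyte are the counterpart of the fetal markers. Of 22 genes 18 were measured, with 13 lower and 5 higher at CA 50 μM (median log2 ratio -0.21) and 14 lower and 4 higher at CA 100 μM (median -0.10), where 56.3% and 57.6% of all genes were lower. ALB, TTR and SERPINA1 belonged to the brightest probes described above, of which 91.0% were lower at 50 μM and 97.2% at 100 μM. What part brightness had in these counts and ratios was not tested. ALB had log2 ratios of -0.15 and -0.35, next to the -0.28 and -0.43 of AFP, its fetal relative. HPD, an enzyme of tyrosine breakdown, read 16.2, 28.0 and 19.8 units, with log2 ratios of 0.60 and 0.05. TAT, another enzyme of that pathway, read 20.8, 18.8 and 70.6 units (log2 ratios of -0.34 and 1.52), but its CA 100 μM spot lay in a disturbed area. OTC, a urea cycle enzyme, read 10.8, 30.9 and 31.1 units, and its untreated spot did not clear the background. The bound was 2.22-fold higher at 50 μM and 2.16-fold at 100 μM. It was taken at the lowest level of any probe that cleared the background on the untreated array, so it is not a firm limit for OTC.

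**Figure D4:**
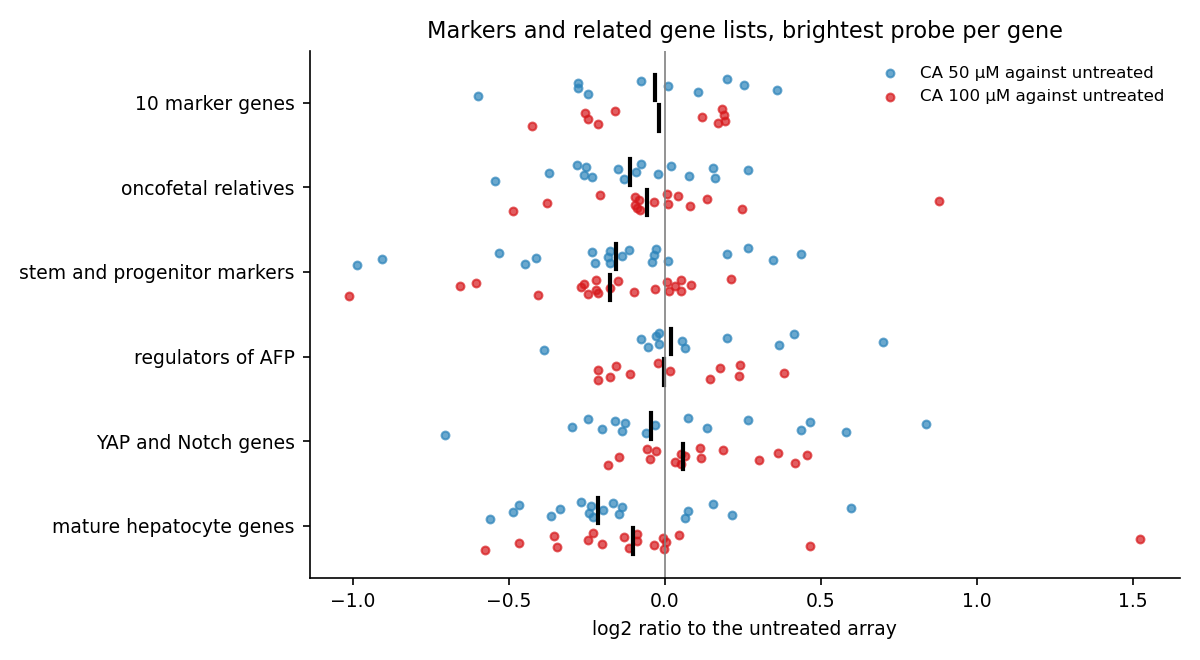
Log2 ratio to untreated cells (x axis) of each measured gene among the 10 markers and the 5 related lists, at CA 50 μM and CA 100 μM, with a black bar at each list's median. The medians of all lists lie between -0.21 and 0.06, and NCAM1 at -1.01 and TAT at 1.52 are the farthest points, both at 100 μM.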

How the data were processed

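Total RNA of Huh7 cells in 3 groups (untreated, or 24 h of CA at 50 μM or 100 μM) was labelled with Cy3 and hybridised to 1 array per group, and groups were taken from the treatment in the labels. The authors used Agilent Feature Extraction 11.0.1.1 on the scans. The deposited processed intensity is background-subtracted but not scaled between arrays. The authors also deposited a table of log2 values, whose method is not given in the sources used here. Its 3 columns share a median of 6.22, and it served as an alternative only.

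Processed intensities were put on the log2 scale and each array's 75th percentile over gene spots was subtracted. Spots with an outlier flag were left out (429, 569 and 596), and repeated spots of 1 probe were averaged. Probes with at least 50% of their spots flagged well above background were taken as such. Ratios were given where this held on both arrays, and otherwise a bound. A bound used the lowest level of any probe well above background on the dimmer array. It used the probe's own reading where that was higher, and is not a firm limit. A gene was represented by its brightest such probe, while each marker probe was also given apart. Probes were named through RefSeq accessions in a table of GRCh38.p14, which named 25771 of 34127 probes (75.5%).

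Differences of 1.5-fold and 2-fold were counted as descriptions, without a test, since each group had 1 array. The 2-fold count was run on simulated data with planted 4-fold changes. That run did not cover the 1.5-fold count, the choice of the brightest probe or the error of dim probes. Markers and related lists were chosen with earlier results of these data known. Every marker was named, with the related genes that differed by at least 1.5-fold at either dose and those that gave only a bound, and the other related genes given (IGF2, IGF2BP1, IGF2BP2, HES1 and ALB) were chosen after their values were seen. Some related genes are not reported here and entered no list count. Areas were called disturbed where, in a window of 17 rows and 7 columns, at least 25% of the dim spots (and at least 5) were 4-fold or more brighter on 1 array, and they held 60, 19 and 2283 spots. The number of arrays limits the precision. Alternatives were quantile, cyclic loess and median scaling, normexp background correction (offset 50), the deposited log2 table, no filter on dim probes, saturated spots left out, disturbed areas left out and the mean over probes. Python 3.11.15, numpy 2.4.6, pandas 2.3.3, matplotlib 3.10.9, R 4.3.3 and limma 3.58.1 were used.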

Additional observations from a re-analysis of the deposited data

How the results depend on the processing

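The count of markers past each fold and the medians over the 10 markers were recomputed under 9 alternatives. The median log2 ratio of the markers at CA 50 μM, -0.03, became 0.0519 with quantile scaling, 0.0616 with the authors' log2 table and 0.11 with the mean over a gene's probes. It moved the other way with median centring, to -0.0817, and with normexp, to -0.0620. At CA 100 μM the median of -0.02 became 0.0698 with quantile scaling, 0.0895 with normexp, 0.0898 with the authors' log2 table and 0.12 with disturbed areas left out. With median centring it was lower, at -0.0395. With normexp, 0 markers in place of 1 were at least 1.5-fold lower at 50 μM, since SPP1 stood at -0.52. The cause was not tested, except that EPCAM dropped out with the disturbed areas and AFP with normexp at 100 μM, which changes the set of genes. No paired analysis was possible because each group had 1 array, for which reason no array could be left out either. Neither slide nor scan could be tested as a batch. Dim probes stood close to the local background, so that small ratios there could not be read. Among the markers this held for DLK1 above all. Of the related genes given, HPD, ANKRD1, NCAM1, HNF4A, H19, MAGEA4 and OTC were dimmer than DLK1 on every array.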
